A study of Mus musculus with 10 samples.

Results

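The genes followed here belong to the export route out of the endoplasmic reticulum (ER) and to its small GTPases, measured in C2C12 cells, a mouse myoblast line that fuses into myotubes. They are the cornichon genes *Cnih1* and *Cnih4*, the ARF genes *Arf1*, *Arf2*, *Arf3*, *Arf4*, *Arf5* and *Arf6*, and the SAR1 genes *Sar1a* and *Sar1b*, found by symbol in the authors' table as 10 of its 55359 genes. They were picked because *Cnih1* and *Arf4* had been seen among the clearest rises between the 2 groups below, and the other 8 genes were added as relatives. Differences of the 10 genes between the groups are therefore given as a description, with no p-value.

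Cells of 5 libraries (si-*Fndc1*) had received an siRNA that targets *Fndc1* and cells of the other 5 (si-Control) a control siRNA, at 100 nM, and both groups were differentiated for 4 days in 2% horse serum according to the labels. The series' design text instead places the harvest at 48 h. *Fndc1* encodes a protein with fibronectin type III domains that the study follows as a factor secreted by muscle. All libraries came from this 1 cell line, no label says whether the 5 libraries of a group were separate cultures, and p-values for other genes then measure only the spread between these libraries.

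SAR1 and ARF proteins are small GTPases that switch between a soluble form bound to GDP and a membrane form bound to GTP. SAR1, loaded with GTP by PREB (also called SEC12) at the ER, recruits the COPII coat that buds vesicles towards the Golgi, and ARF1, loaded by GBF1, recruits the COPI coat that carries material back and between Golgi cisternae. ARFs are grouped by sequence into class I (*Arf1*, *Arf2*, *Arf3*), class II (*Arf4*, *Arf5*) and class III (*Arf6*, which acts at the plasma membrane and on recycling endosomes). Cornichons are membrane proteins that hand selected cargo, such as growth factor precursors, to the COPII coat. In differentiating muscle this route carries matrix proteins, receptors and adhesion molecules to the cell surface.

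The 6 ARF proteins are close relatives, so the letters that tell their transcripts apart are shown first. Translations of the GENCODE coding sequences (build NCBIM37) had 181 residues for the class I proteins, 180 for *Arf4* and *Arf5*, 175 for *Arf6* and 198 for *Sar1a* and *Sar1b*. Protein identity was 96.1% between *Arf1* and *Arf3*, 95.6% between *Arf1* and *Arf2*, 90.0% between *Arf4* and *Arf5*, 90.9% between *Sar1a* and *Sar1b*, 66.9% between *Arf1* and *Arf6* and 36.8% between *Cnih1* and *Cnih4*. The longest identical run in the coding sequences of any pair of the 10 genes was 39 bases, between *Arf1* and *Arf6*, which are not the closest pair as proteins, whereas *Arf1* and *Arf3* shared at most 29 bases, *Arf4* and *Arf5* 14, and *Sar1a* and *Sar1b* 20. That run lies in 1 coding exon of *Arf1* at chr11:59026674-59026712 on the minus strand and of *Arf6* at chr12:70473960-70473998 on the plus strand, in the stretch that encodes part of the GTP-binding site. It is printed here for all 6 ARFs, 5′ to 3′, with capitals at each base that differs from *Arf1*.

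Arf1: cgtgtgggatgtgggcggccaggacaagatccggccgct
Arf6: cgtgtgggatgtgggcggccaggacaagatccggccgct
Arf5: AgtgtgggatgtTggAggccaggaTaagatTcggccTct
Arf3: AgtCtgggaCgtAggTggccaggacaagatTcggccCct
Arf2: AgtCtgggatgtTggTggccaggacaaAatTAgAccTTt
Arf4: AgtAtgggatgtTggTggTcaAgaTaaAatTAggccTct

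*Arf5* differed from *Arf1* at 6 of these 39 bases, *Arf3* at 7, *Arf2* at 10 and *Arf4* at 11. In *Arf2* the run lies at chr11:103834310-103834348 on the plus strand, in *Arf3* at chr15:98571784-98571822 on the minus strand, in *Arf4* at chr14:27466443-27466481 on the plus strand and in *Arf5* at chr6:28374765-28374803 on the plus strand, each within 1 coding exon. How the counting treated reads that fit more than 1 place is not stated, so the split of such reads between ARF genes is uncertain.

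The authors deposited a count and an FPKM value (a level scaled to transcript length and library size) for each gene and library. Libraries of si-Control held 66771605 to 75995168 counts and libraries of si-*Fndc1* 56332844 to 72839369, and each of the 10 genes had at least 2076 counts in every library, so that the spread between libraries rather than counting limits the values. The targeted gene *Fndc1* had 27.8 ± 2.04 FPKM in si-Control and 20.9 ± 1.70 in si-*Fndc1* (SD, n = 5 libraries each), which is 24.8% lower, with all 5 si-*Fndc1* libraries below all 5 controls (two-sided exact permutation test, p = 0.00794). Transcripts of 12 liver markers such as *Alb* and *Apoa1* all rose, from a sum between 0.214 and 6.21 FPKM in control libraries to a sum between 49.7 and 179 FPKM in knockdown libraries, and 11 of the 12 had no count in at least 1 si-Control library. Their part in the results below was not tested, and in bulk RNA fewer cells of a type and less RNA per cell cannot be told apart. The 12 myotube markers summed to 4287 to 4779 FPKM in control libraries and 4100 to 4775 FPKM in knockdown libraries, so both groups carried the transcripts of differentiated muscle cells.

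Among the 10 genes, 3 rose (*Cnih1*, *Arf4*, *Arf2*), 4 fell (*Arf6*, *Arf3*, *Arf5*, *Arf1*) and 3 were not called (*Cnih4*, *Sar1a*, *Sar1b*), at an adjusted p-value under 0.05 in edgeR's quasi-likelihood test over all 13548 genes with a mean of at least 0.5 FPKM. All 10 passed that filter. Over all tested genes, 17.3% rose and 17.2% fell. By FPKM, the si-*Fndc1* libraries all lay above the controls for 2 of the 10 genes and all below them for 3, and 25.1% of all tested genes were separated in one direction or the other. Because the choice of the genes used this same contrast, nothing is read from these counts against the background.

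**Figure D1:**
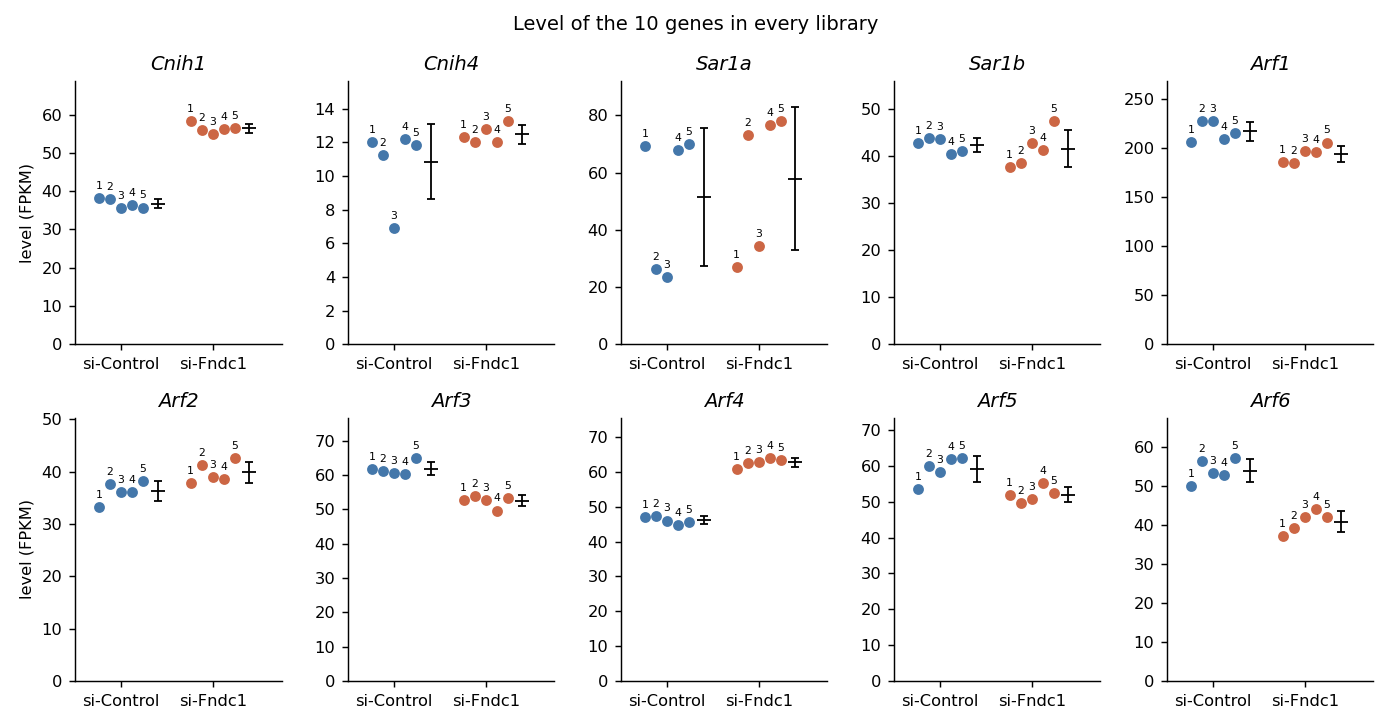
Level of each of the 10 genes in FPKM (vertical axes, each from 0) in the 5 si-Control libraries (blue) and the 5 si-Fndc1 libraries (orange), with the library number above each point and the mean and SD as black bars. Cnih1 and Arf4 are higher in every si-Fndc1 library, Arf1, Arf3 and Arf6 are lower in every one, and Sar1a falls into high and low libraries within both groups.

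*Cnih1* (ENSMUSG00000015759, listed at chr14:47013024-47025868 on the minus strand, as the deposited table gives it) encodes the most widely expressed cornichon, the relative of the fly protein that exports a TGF-alpha-like ligand. It had 38.2, 37.9, 35.5, 36.4 and 35.7 FPKM in si-Control libraries 1 to 5, and 58.3, 55.9, 55.1, 56.2 and 56.6 FPKM in si-*Fndc1* libraries 1 to 5. The lowest si-*Fndc1* library lay far above the highest control, and within a group the libraries differed little, with coefficients of variation of 3.36% and 2.12%. The mean rose from 36.7 ± 1.24 to 56.4 ± 1.20 FPKM (SD, n = 5 each), a ratio of 1.54 and a log2 fold change of 0.63 with a standard error (SE) of 0.03. Among the 13548 tested genes it ranked 542nd from the top by log2 fold change.

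*Cnih4* (ENSMUSG00000062169, chr1:180972258-180996559, plus strand) encodes a cornichon known for helping G protein-coupled receptors leave the ER. Its levels were 12.0, 11.3, 6.93, 12.2 and 11.8 FPKM in si-Control and 12.3, 12.0, 12.8, 12.0 and 13.3 in si-*Fndc1*. The groups overlapped, and si-Control library 3 stood apart from the other 4 controls. The log2 fold change was 0.21 (SE 0.13), not called, and was 0.08 without that library. Summed over both cornichons, the level was 47.6 ± 3.04 FPKM in si-Control and 68.9 ± 1.27 in si-*Fndc1*, without overlap between the groups, and *Cnih1* made up 77.4% ± 3.63 and 81.9% ± 0.740 of the sum, with overlap. *Cnih2*, a cornichon known as a partner of AMPA receptors, was low at 0.874 ± 0.262 and 0.533 ± 0.138 FPKM with a log2 fold change of -0.70 (SE 0.26, edgeR adjusted p = 0.0542), passing the threshold when si-Control library 2 was left out, and *Cnih3* was under the filter.

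*Arf4* (ENSMUSG00000021877, chr14:26359229-26378413, plus strand) encodes a class II ARF of the ER-Golgi boundary and trans-Golgi. It had 47.1, 47.2, 46.1, 44.7 and 45.7 FPKM in si-Control libraries and 60.8, 62.5, 62.8, 64.0 and 63.5 FPKM in si-*Fndc1* libraries. No libraries of the 2 groups overlapped, and the spread within a group was about as small as that of *Cnih1*. The mean went from 46.2 ± 1.07 to 62.7 ± 1.23 FPKM, a ratio of 1.36 and a log2 fold change of 0.45 (SE 0.03), and the gene ranked 1001st of 13548 from the top. Its class II partner *Arf5* (ENSMUSG00000020440, chr6:28423559-28426601, plus strand) moved the other way, with 53.4, 60.1, 58.3, 62.0 and 62.2 FPKM in si-Control and 51.8, 49.6, 50.8, 55.2 and 52.4 in si-*Fndc1*. Only si-*Fndc1* library 4 reached the range of the controls, whose lowest value was library 1. The *Arf5* mean fell from 59.2 ± 3.59 to 52.0 ± 2.11 FPKM (log2 fold change -0.18, SE 0.05).

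The paralog balance of class II ARFs differed between the groups. *Arf4* made up 46.9%, 44.0%, 44.1%, 41.9% and 42.4% of the summed *Arf4* and *Arf5* FPKM in si-Control libraries 1 to 5 and 54.0%, 55.7%, 55.3%, 53.7% and 54.8% in si-*Fndc1* libraries. *Arf5* was the more abundant of the pair per length in all 5 controls and *Arf4* in all 5 si-*Fndc1* libraries. By counts, *Arf4* was already the larger of the pair in every control library, at 57.6% to 62.5%. Its share of counts was higher after knockdown, at 68.7% to 70.4%, again without overlap. The change of the larger paralog thus depends on the division by length. That division scales a gene alike in every library, so the higher *Arf4* share by counts is no separate check. With the offset for GC content and length given below, the log2 fold change was 0.27 for *Arf4* and -0.08 for *Arf5*, the latter not called. The FPKM share of *Arf4* went from 43.8% ± 1.96 to 54.7% ± 0.857, a difference of 10.9 percentage points. The summed class II level went from 105 ± 2.99 to 115 ± 2.94 FPKM, also without overlap.

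**Figure D2:**
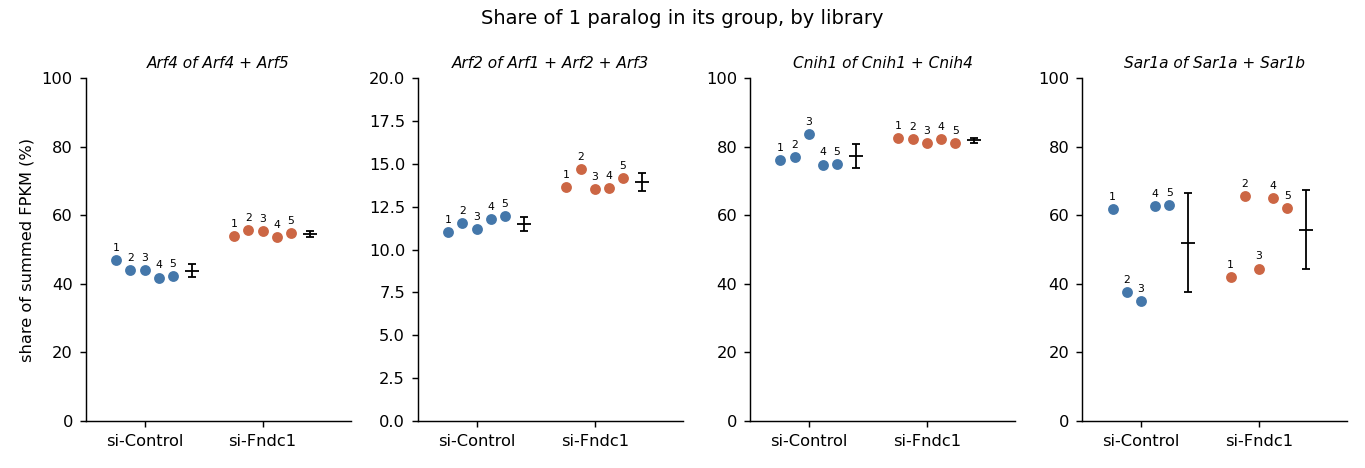
Share of 1 paralog in the summed FPKM of its group (vertical axes in percent, 0 to 100 except 0 to 20 for Arf2) in si-Control (blue) and si-Fndc1 (orange) libraries, with library numbers and the mean and SD as black bars. The Arf4 share lies between 41.9% and 46.9% in the controls and between 53.7% and 55.7% in the others, while the Sar1a share covers about the same range in both groups.

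Gene coordinates are as the table lists them, without a named build, and the processing notes name GRCm39. The class I genes supplied most of the summed ARF level per length. *Arf1* (ENSMUSG00000048076, chr11:59102238-59119096, minus strand), the ARF that recruits COPI, had 206, 227, 227, 209 and 215 FPKM in si-Control and 186, 185, 196, 196 and 205 in si-*Fndc1*. Every si-*Fndc1* library was below every control, although the highest of them came close to the lowest control. The mean fell from 217 ± 9.70 to 194 ± 8.46 FPKM (log2 fold change -0.16, SE 0.04). *Arf3* (ENSMUSG00000051853, chr15:98634515-98661095, minus strand), a trans-Golgi ARF, had 61.7, 61.1, 60.7, 60.3 and 65.0 FPKM in si-Control and 52.8, 53.8, 52.7, 49.6 and 53.2 in si-*Fndc1*. These groups were well separated, and the mean fell from 61.8 ± 1.86 to 52.4 ± 1.62 FPKM (log2 fold change -0.23, SE 0.03). *Arf2* (ENSMUSG00000062421, chr11:103857565-103876163, plus strand), a class I gene that humans lack, had 33.2, 37.6, 36.2, 36.1 and 38.2 FPKM in si-Control and 37.8, 41.2, 39.1, 38.7 and 42.7 in si-*Fndc1*. Its groups overlapped by 1 library on each side, and the mean rose from 36.3 ± 1.93 to 39.9 ± 2.00 FPKM (log2 fold change 0.14, SE 0.05).

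*Arf2* therefore took a larger part of class I, 11.0% to 12.0% in si-Control against 13.6% to 14.7% in si-*Fndc1*, with no overlap, while *Arf1* remained at 68.9% ± 1.0 and 67.7% ± 1.10 of the class I sum, with overlap. The *Arf2* call was the least firm of the 7: it was lost without a filter on low levels, with quantile normalization, with the correction for GC content and length given below, and when si-Control library 1, 3 or 4 or si-*Fndc1* library 2 or 5 was left out (log2 fold change 0.12 to 0.17 over the 10 fits that leave out 1 library).

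*Arf6* (ENSMUSG00000044147, chr12:69418924-69420557, plus strand), the class III ARF of the cell surface, which takes part in membrane recycling and in myoblast fusion, showed the largest fall of the 10. It had 49.9, 56.3, 53.4, 52.9 and 57.2 FPKM in si-Control and 37.1, 39.1, 42.0, 44.0 and 41.9 in si-*Fndc1*. All 5 si-*Fndc1* libraries lay below all controls, with a gap of several FPKM between the groups. The mean fell from 53.9 ± 2.90 to 40.8 ± 2.70 FPKM, which is 24.3% lower, with a log2 fold change of -0.39 (SE 0.05). Summed over all 6 ARF genes, the level was 474 ± 15.5 FPKM in si-Control and 441 ± 13.1 in si-*Fndc1*, with overlap. Within that sum *Arf4* went from 9.74% ± 0.396 to 14.2% ± 0.246 and *Arf6* from 11.4% ± 0.319 to 9.24% ± 0.426, both without overlap.

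*Sar1a* (ENSMUSG00000020088, chr10:61516078-61529076, plus strand) and *Sar1b* (ENSMUSG00000020386, chr11:51654514-51682752, plus strand) encode the GTPases that start the COPII coat, and SAR1B is known for its need in the export of chylomicrons, very large lipoprotein particles. *Sar1a* had 69.3, 26.4, 23.5, 67.9 and 70.0 FPKM in si-Control and 27.2, 73.3, 34.4, 76.8 and 78.0 in si-*Fndc1*. Libraries 2 and 3 of si-Control and 1 and 3 of si-*Fndc1* had 6964 to 10091 counts and the other 6 libraries 18231 to 22945, so that the gene had a high and a low level within each group. The log2 fold change of 0.18 had an SE of 0.40, not called, and was -0.01 without si-Control library 3 and 0.36 without si-*Fndc1* library 1. *Sar1b* did not share that split, with 42.9, 43.8, 43.6, 40.4 and 41.0 FPKM in si-Control and 37.6, 38.5, 42.9, 41.4 and 47.4 in si-*Fndc1*. Its groups overlapped and its log2 fold change was -0.02 (SE 0.06), not called. Of the SAR1 sum *Sar1a* took 35.0% to 63.1% in control libraries and 42.0% to 65.6% in knockdown libraries.

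**Figure D3:**
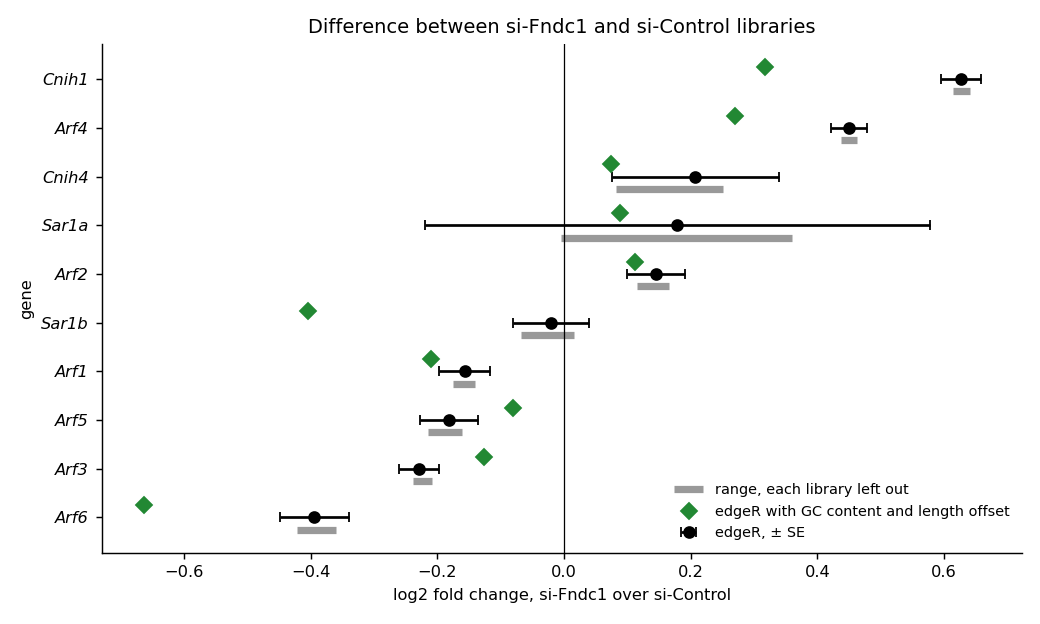
Log2 fold change of each gene, si-Fndc1 over si-Control (horizontal axis), from edgeR with its SE (black), with the range over fits that leave out 1 library each (grey) and the value after an offset for GC content and length (green). Cnih1 and Arf4 lie farthest to the right and Arf6 farthest to the left, and the offset moves Cnih1 from 0.63 to 0.32, Arf6 from -0.39 to -0.66 and Sar1b from -0.02 to -0.40.

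The fit was repeated with an offset for GC content and length over the 11185 tested genes that have both. Of these 2538 were then called, beside 4244 of the same genes without the offset. Length was the value implied by the deposited counts and FPKM, not that of an annotated transcript. The implied length and that of the coding transcript were 1706 and 3730 bases for *Arf6*, and 4007 and 2165 bases for *Arf4*. With the offset *Cnih1* had a log2 fold change of 0.32 and *Arf4* 0.27, both still called, *Arf3* -0.13, *Arf1* -0.21 and *Arf6* -0.66, also called. *Arf2* (0.11) and *Arf5* (-0.08) were no longer called, and *Sar1b* (-0.40) was. The signs of all 10 genes were as without the offset. *Cnih1* and *Arf4* transcripts had a GC content of 44.4% and 43.6%, under the lower quartile of tested genes (45.7%), as had *Sar1b* (42.8%) and *Cnih4* (45.3%), and *Arf5* had 59.9%, over the upper quartile (55.2%). The part of GC content in the differences was not tested beyond this fit.

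Seen as an order of levels, *Arf1* was highest in both groups and *Cnih4* lowest. In si-Control the order of mean FPKM was *Arf1*, *Arf3*, *Arf5*, *Arf6*, *Sar1a*, *Arf4*, *Sar1b*, *Cnih1*, *Arf2* and *Cnih4*, where the ranges of *Arf3*, *Arf5*, *Arf6* and *Sar1a* overlapped between neighbours, as did those of *Sar1a* and *Arf4* and of *Cnih1* and *Arf2*. In si-*Fndc1* it was *Arf1*, *Arf4*, *Sar1a*, *Cnih1*, *Arf3*, *Arf5*, *Sar1b*, *Arf6*, *Arf2* and *Cnih4*. *Arf4* moved from rank 6 to rank 2 and *Cnih1* from 8 to 4, while *Arf6* went from 4 to 8. There *Arf4*, *Sar1a* and *Cnih1* overlapped between neighbours, as did *Arf3* and *Arf5*, and *Sar1b*, *Arf6* and *Arf2*.

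Some of the 10 genes share their locus. *Arf5* overlaps 3043 listed bases of *Gcc1*, a Golgi coiled-coil gene on the opposite strand whose count reached 29.2% of that of *Arf5* and which also fell (log2 fold change -0.17, edgeR adjusted p = 0.0128). *Arf6* overlaps the noncoding *Gm9887* on the opposite strand, with at most 5.71% of its count (log2 fold change -0.56, adjusted p = 0.0047). The antisense genes *Arf4os* and *Gm48933*, which overlap *Arf4* and *Cnih1*, had at most 32 and 38 counts. No source says if strand was used in counting, and without it reads of such pairs cannot be told apart.

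Among the genes whose values followed *Cnih1* most closely over the 10 libraries, by root mean square difference of centred log2 CPM (counts scaled to library size), were *Mcts1*, a translation factor (0.039), *Rtraf* (0.049), *Ndufb9*, a subunit of respiratory complex I (0.050), and *Gm10131* (0.054). For *Arf4* they were *U2af1*, a splicing factor (0.032), *Cat*, which encodes catalase (0.036), *Atp5g3*, a subunit of ATP synthase (0.041), *Rab2a*, a Rab of the early secretory route (0.042), and *Uqcc2*, an assembly factor of respiratory complex III (0.044). These 9 genes were picked for their likeness over the same libraries, so like *Cnih1* and *Arf4* they lay above every control in every si-*Fndc1* library, from *Rab2a* with 95.0 ± 1.46 and 123 ± 3.99 FPKM to *Ndufb9* with 81.9 ± 5.17 and 128 ± 4.04 FPKM. Each of the 9 was also among the 5 nearest on log2(FPKM + 1).

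The sequence before the start sites of *Cnih1* and *Arf4* is shown. That both rose was the reason for picking these genes, and a shared control was not tested. Each sequence has 250 bases from RefSeq on GRCm38.p6, read 5′ to 3′ on the gene's strand and ending just before the start site. The window of *Cnih1* is chr14:46788358-46788607 on the minus strand and that of *Arf4* chr14:26637884-26638133 on the plus strand. Capitals mark GGGCGG or its reverse complement, the GC box of Sp1-type factors.

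Cnih1: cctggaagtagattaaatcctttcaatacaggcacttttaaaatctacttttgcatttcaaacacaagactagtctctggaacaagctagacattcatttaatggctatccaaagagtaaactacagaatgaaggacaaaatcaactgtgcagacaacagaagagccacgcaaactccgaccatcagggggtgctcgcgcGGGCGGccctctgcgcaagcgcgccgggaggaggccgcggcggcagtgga
Arf4: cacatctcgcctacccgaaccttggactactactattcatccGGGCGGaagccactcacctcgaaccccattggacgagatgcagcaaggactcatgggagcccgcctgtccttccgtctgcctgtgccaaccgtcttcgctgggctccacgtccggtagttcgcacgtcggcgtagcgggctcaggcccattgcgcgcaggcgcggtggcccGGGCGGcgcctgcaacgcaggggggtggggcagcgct

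*Cnih1* held 1 such match and *Arf4* held 2, in windows with a GC content of 49.6% and 66.8%. Over windows that also took in the first 50 bases after the start, 9 of the 10 genes had an entry (12 windows), and *Arf6* had none. On either strand, GGGCGG was in 11 of these 12 windows, those of all 9 genes but *Sar1b*, and in 35.7% of the 32851 windows of all genes. TGACG, the core of the element bound by CREB-type factors, was in 6 of the 12, those of *Arf1*, *Arf4*, *Arf5*, *Cnih4* and *Sar1a*, against 20.8% of all windows, and in *Arf4* it lay outside the bases printed here. CAGCTG, an E-box of myogenic factors, was in none of them and in 16.3% of all windows. Both GGGCGG and TGACG were found in windows of genes that rose and of genes that fell. The windows of all genes were not limited to expressed genes, whereas each of the 10 genes was expressed. Nothing is therefore read from the difference between these shares.

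The machinery around these GTPases was followed in lists written from textbook roles, but with earlier results of these data known. Of the 149 genes in these lists 127 were tested. Of these 29 rose (22.8%) and 35 fell (27.6%), beside 17.3% and 17.2% of all tested genes. Their median log2 fold change was 0.00, as over all tested genes. Among genes with a mean of at least 5 FPKM, larger shares were called, with 24.8% that rose and 24.7% that fell. Levels of the list genes were not matched to those of all tested genes. No excess is therefore read from these shares, here or in the lists below. Leaving out each library in turn gave 23 to 31 rises and 25 to 30 falls, so no such fit reached 35 falls. With the offset for GC content and length 17 rose and 16 fell of the 126 that could be fitted, and 11.3% and 11.4% of all genes did. These last 2 shares are the background for the counts with the offset in each list below.

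**Figure D4:**
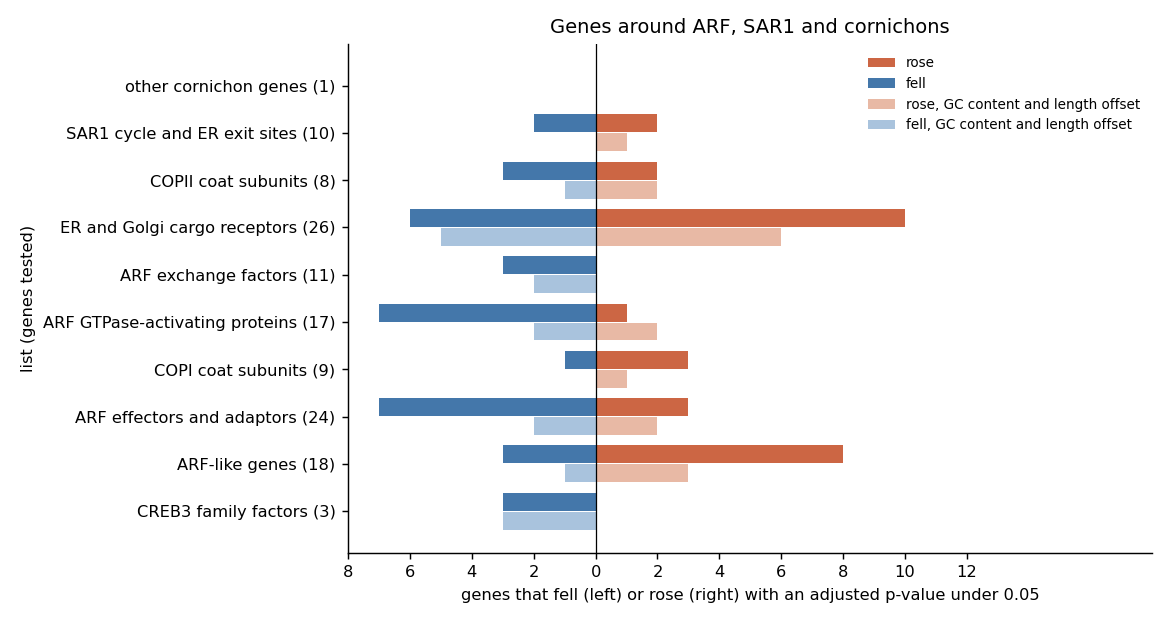
Number of genes (horizontal axis) that rose (right) or fell (left) at an adjusted p-value under 0.05 in each list, without (dark) and with (light) an offset for GC content and length, and the number tested in parentheses. Of the exchange factors for ARFs 3 of 11 fell, 7 of 17 GTPase-activating proteins fell, and all 3 tested CREB3 family genes fell in both fits. Over all tested genes 17.2% fell without the offset and 11.4% with it.

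Exchange factors load ARFs with GTP. Of 11 tested exchange factors 3 fell (27.3%), beside 17.2% of all tested genes, and the other 8 were not called. Their median log2 fold change was -0.07, and 1 rose when si-Control library 2 was left out. *Gbf1*, the exchange factor for COPI formation, had 13.1 ± 0.523 FPKM in si-Control and 10.0 ± 0.794 in si-*Fndc1*, with no overlap (log2 fold change -0.38, SE 0.05, edgeR adjusted p = 0.000399). *Arfgef2*, which acts at the trans-Golgi (-0.25, SE 0.04, adjusted p = 0.00164), and *Iqsec2*, which acts on *Arf6* (-0.23, SE 0.05, adjusted p = 0.0086), were also lower in all 5 libraries. *Arfgef1*, the close relative of *Arfgef2*, had 6.93 ± 0.522 and 7.38 ± 0.628 FPKM (adjusted p = 0.278). With the offset *Gbf1* (-0.19) and *Arfgef2* (-0.16) were still called, and *Iqsec2* was not and stood at 0.06.

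GTPase-activating proteins for ARFs had 7 falls (41.2%) and 1 rise (5.88%) among 17 tested genes, with a median of -0.11. Over all tested genes 17.2% fell and 17.3% rose. With the offset the list had 2 falls and 2 rises. There were 4 falls when si-Control library 5 or si-*Fndc1* library 1 or 4 was left out, and the rise was lost in some of the fits that leave out 1 library. *Agap1* fell from 2.51 ± 0.154 to 1.65 ± 0.109 FPKM (log2 fold change -0.59, SE 0.06, adjusted p = 5.04e-05) and *Agap3* from 15.4 ± 0.696 to 11.6 ± 0.396 (-0.40, SE 0.04, adjusted p = 4.84e-05), and both were still called with the offset at -0.31 and -0.11. *Git1*, a scaffold that also acts at focal adhesions, fell by 0.25 on the log2 scale (SE 0.05, adjusted p = 0.00341), and was not called with the offset (-0.02). *Arfgap1*, which works on the COPI coat, had 9.36 ± 0.954 and 9.46 ± 0.498 FPKM and a log2 fold change of 0.02 (SE 0.07, adjusted p = 0.838).

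Effectors and adaptors that ARFs recruit showed 7 falls (29.2%) and 3 rises (12.5%) of 24, beside 17.2% and 17.3% of all tested genes. Their median was -0.10. Leaving out any 1 library gave 4 to 6 falls, with 4 when it was si-Control library 5 or si-*Fndc1* library 2 or 4. *Gga1*, a clathrin adaptor of the trans-Golgi, fell from 27.5 ± 0.60 to 20.2 ± 0.969 FPKM (log2 fold change -0.44, SE 0.04, adjusted p = 2e-05), while *Ap1s2*, a small subunit of the AP-1 adaptor, rose from 6.24 ± 0.183 to 9.21 ± 0.755 (0.57, SE 0.05, adjusted p = 4.2e-05). *Uso1*, the tether p115 of ER-Golgi vesicles, rose by 0.20 (SE 0.04, adjusted p = 0.00293). With the offset 2 rose and 2 fell. Of the 9 COPI subunits 3 rose (33.3%) and 1 fell (11.1%), beside 17.3% and 17.2% of all tested genes. Their median was 0.07, and without si-Control library 1 or 3 or si-*Fndc1* library 5 only 1 rose. The fall was lost when si-Control library 1, 3 or 5 or si-*Fndc1* library 1 or 3 was left out. *Copb1* went from 25.5 ± 1.02 to 28.5 ± 0.382 FPKM (0.17, SE 0.03, adjusted p = 0.00228), *Arcn1* rose by 0.09 (adjusted p = 0.0259) and *Copg1* fell by 0.13 (adjusted p = 0.025), and with the offset these 3 had values of 0.01, 0.11 and 0.04, none called.

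ARF-like genes are relatives of ARFs with roles at lysosomes, cilia and the Golgi. They had 8 rises (44.4%) and 3 falls (16.7%) among 18 tested, with a median of 0.17, beside 17.3% and 17.2% of all tested genes. *Arl8b*, which moves lysosomes along microtubules, rose from 18.1 ± 0.746 to 22.1 ± 0.639 FPKM (log2 fold change 0.29, SE 0.03, adjusted p = 0.00013), *Arl3*, a ciliary cargo GTPase, from 12.2 ± 0.933 to 15.6 ± 1.19 (0.36, SE 0.07, adjusted p = 0.00204), and *Trim23*, a ubiquitin ligase with an ARF domain, from 5.90 ± 0.145 to 7.05 ± 0.601 (0.26, SE 0.06, adjusted p = 0.00399). *Arl1*, the trans-Golgi member, had 72.4 ± 8.18 and 81.9 ± 7.40 FPKM (adjusted p = 0.109). The offset left 3 rises and 1 fall, among them *Arl8b* (0.14) and *Arl3* (0.31) but not *Trim23* (0.01).

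On the SAR1 side, 2 of 10 genes of the SAR1 cycle and ER exit sites rose (20%) and 2 fell (20%). Over all tested genes 17.3% rose and 17.2% fell. The median of the list was 0.02, and 1 fell when any library other than si-Control 2 or 3 was left out. *Preb*, the exchange factor that loads SAR1, fell from 14.4 ± 0.659 to 11.9 ± 1.20 FPKM with overlap (log2 fold change -0.26, SE 0.07, adjusted p = 0.0118), and was at -0.16 with the offset, not called. *Tfg*, which organizes ER exit sites, rose from 29.3 ± 0.927 to 39.4 ± 1.64 FPKM (0.44, SE 0.04, adjusted p = 2e-05) and was called with the offset at 0.27, the only gene of this list that was. *Pdcd6*, a calcium sensor that binds the outer COPII coat, rose by 0.24 (adjusted p = 0.000655) and stood at 0.08 with the offset. *Sec16a*, the scaffold of exit sites, had 8.68 ± 0.689 and 7.99 ± 0.676 FPKM (adjusted p = 0.236), and *Mia3*, needed for collagen export, 18.3 ± 1.06 and 17.7 ± 1.10 (adjusted p = 0.559). Of 8 tested COPII subunits 2 rose (25%) and 3 fell (37.5%), with a median of -0.06, beside 17.3% and 17.2% of all tested genes. *Sec13* rose from 40.0 ± 1.72 to 47.6 ± 2.98 FPKM (0.26, SE 0.05, adjusted p = 0.00157), and the cargo-binding subunits *Sec24d* (-0.14, adjusted p = 0.00555) and *Sec24c* (-0.22, adjusted p = 0.00681) fell. With the offset 2 COPII subunits rose and 1 fell, *Sec13* (0.28) and *Sec24d* (-0.10) being called and *Sec24c* (-0.13) not.

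Cargo receptors, the class to which cornichons belong, had 10 rises (38.5%) and 6 falls (23.1%) of 26 tested, with a median of 0.12. Over all tested genes 17.3% rose and 17.2% fell. With the offset the list had 6 rises and 5 falls. Without si-Control library 3 or si-*Fndc1* library 4 there were 3 falls. *Bcap29* rose from 2.48 ± 0.0674 to 3.32 ± 0.118 FPKM (log2 fold change 0.43, SE 0.04, adjusted p = 6.69e-05), and the p24 family genes *Tmed5* from 5.76 ± 0.419 to 7.84 ± 0.377 (0.45, SE 0.05, adjusted p = 0.000146) and *Tmed7* from 13.6 ± 0.574 to 17.0 ± 0.747 (0.33, SE 0.04, adjusted p = 0.000122). These 3 were still called with the offset, at 0.26, 0.20 and 0.46. They had been named for the smallest p-values of the list. The largest fall, also named after its value was seen, was that of the p24 gene *Tmed2*, from 97.5 ± 4.14 to 70.0 ± 12.4 FPKM. All 5 si-*Fndc1* libraries lay below the controls (-0.47, SE 0.10, adjusted p = 0.00378). *Lman1*, the lectin that carries glycoproteins such as coagulation factors, rose from 23.5 ± 1.23 to 26.6 ± 1.41 FPKM (0.19, SE 0.05, adjusted p = 0.00929). *Surf4*, a receptor for soluble cargo, had 105 ± 1.92 and 102 ± 0.966 FPKM (-0.03, SE 0.03, adjusted p = 0.366). The log2 fold change of *Cnih1* was larger than that of each of these receptors without the offset and smaller than that of *Tmed7* with it. Because *Cnih1* had been picked for its rise, nothing is read from this order.

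CREB3 family factors are ER membrane proteins that are cut and then act as transcription factors for genes of the secretory route, and CREB3 is known as an activator of ARF4 under Golgi stress. All 3 tested members fell, in both fits, while 17.2% of all tested genes fell without the offset and 11.4% with it. *Creb3l1* fell from 88.2 ± 2.15 to 62.5 ± 2.13 FPKM (log2 fold change -0.49, SE 0.03, edgeR adjusted p = 8.53e-06), *Creb3* from 26.4 ± 0.985 to 21.6 ± 1.89 (-0.29, SE 0.06, adjusted p = 0.00309) and *Creb3l2* from 16.2 ± 0.864 to 13.4 ± 0.362 (-0.26, SE 0.04, adjusted p = 0.000482). *Arf4* and these transcripts differed between the groups in opposite directions, with no overlap between the groups for any of the 4. A link between them was not tested, and transcript levels do not show how much of these factors was cut.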

How the data were processed

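RNA from 10 libraries of C2C12 cells (5 si-Control, 5 si-*Fndc1*) had been sequenced, and groups and replicate numbers came from the sample titles. The authors deposited 1 table with raw counts and FPKM values per gene and library, and 0 columns of library values were left without a sample. The submitters' processing notes name cutadapt 1.9, FastQC and GRCm39, the methods TopHat, mm10 and htseq-count, and the series' design text STAR and mm9. How the deposited FPKM values were normalized, and whether counting used the strand, is not stated. The methods name fewer libraries than the table holds, and all 10 were used.

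Counts were tested with edgeR 4.0.16 (quasi-likelihood, TMM scaling, no replicate block) in R 4.3.3, over the 13548 genes with a mean of at least 0.5 FPKM, with Benjamini-Hochberg adjustment over all of them. The SE is the log2 fold change divided by the square root of F. Alternatives were DESeq2 1.42.0 (the test the study names), other scalings and filters, limma 3.58.1 on log2(FPKM + 1), the replicate block, an offset for GC content and length (splines with 5 degrees of freedom, for 82.6% of tested genes), and leaving out each library. The fit was tested on simulated data.

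The members and the gene lists were chosen with earlier results of these data known. Besides the 10 genes, the text names *Fndc1*, a set of 13 genes given whatever their values, the 3 genes with the smallest p-values of each pathway list, the 5 nearest genes of *Cnih1* and of *Arf4*, and overlapping genes, and 1 gene that this rule names is not reported here. Coding sequences came from GENCODE (NCBIM37) and promoter windows from RefSeq (GRCm38.p6). For each gene the coding transcript was the longest one with a coding sequence of at least 90% of the gene's longest. Protein identity was counted after global alignment (BLOSUM62), over the longer protein. Depth was 56332844 to 75995168 counts per library. All 20 pairs of libraries within a group differed beyond sampling noise (lowest chi-square over degrees of freedom 41.0). Python 3.11.15, numpy 2.4.6, pandas 2.3.3, scipy 1.17.1 and matplotlib 3.10.9 were used for tables, the exact test and figures.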

Additional observations from a re-analysis of the deposited data

Results flagged for a closer look

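Single libraries stood apart from the other 4 of their group, by Dixon's criterion for 5 values, in 5 of 112 groups of FPKM values (56 genes), and chance alone gives about 1 in 20. *Cnih4* had 6.93 FPKM in si-Control library 3 and 11.3 to 12.2 in the other controls. *Arf3* had 49.6 FPKM in si-*Fndc1* library 4 and 52.7 to 53.8 in the others of its group, all of them below the controls. *Arfgap1* had 7.70 FPKM in si-Control library 5 and 9.48 to 10.1 in the other controls. *Tmed7* had 18.3 FPKM in si-*Fndc1* library 5 and 16.5 to 17.0 in the others. *Sec24c* had 19.7 FPKM in si-*Fndc1* library 2 and 16.8 to 17.6 in the others. *Sar1a*, whose low values come in 2 libraries of each group, does not meet the criterion.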

How the results depend on the processing

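*Cnih1*, *Arf4*, *Arf1*, *Arf3* and *Arf6* kept their sign and were called in all 22 alternative fits. Of 220 values of the 10 genes under those fits, 204 kept sign and call, 11 lost the call (*Arf2*, *Arf5*), 2 gained it (*Sar1b*, with the offset for GC content and length) and 3 changed sign without a call (*Sar1a* and *Sar1b*, with 1 library left out). Among all tested genes 4663 were called (2338 rose, 2325 fell). With the offset it was 2538 (1260, 1278), of which 1790 were also called without it, and with the offset and the replicate block 1647 (833, 814). Of the pathway genes 17 rose and 16 fell with the offset, 13 and 13 with the offset and block, and 19 rose with the block alone. With the offset, and with offset and block, *Copg1* changed sign to 0.0380 and 0.0381 and *Iqsec2* to 0.0578 and 0.0576, without a call. The cause was not tested. Leaving out 1 library gave 4000 to 4627 genes called (2022 to 2321 rose, 1978 to 2321 fell), 23 to 31 pathway genes that rose and 25 to 30 that fell. The *Sar1a* share difference ran from -0.443 to 7.28 percentage points and that of *Arf4* from 10.4 to 11.6. The block called 3572 genes in all. Same-numbered libraries were not treated as pairs in the main fit. Their deviations correlated at -0.0556 to 0.0616, 0 of 5 pairs above 0.1, and 1 of 5 controls correlated best with its own number. These correlations cannot show how the libraries were prepared. The added fit on only the genes with a GC content was chosen after seeing the data. Upper-quartile scaling gave 2542 rises and 2099 falls, and no scaling moved the median log2 fold change of all genes past 0.1. Such scalings place most genes near no change, so this is no check on a shift of all genes. Without a filter 4164 genes were called, and at a mean of at least 5 FPKM 3431.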

Other observations

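Marker transcripts of differentiation are given here, the single genes having been chosen after their values were seen. Over all tested genes 17.3% rose and 17.2% fell, and 11.3% and 11.4% did with the offset. Of 12 myotube markers 2 rose, *Ckm*, the muscle creatine kinase (log2 fold change 0.39, SE 0.05, edgeR adjusted p = 0.000201), and *Mymk*, the fusion protein myomaker (0.26, SE 0.07, adjusted p = 0.0188), and 1 fell, *Mymx*, its partner myomixer (-0.17, SE 0.06, adjusted p = 0.0442). With the offset for GC content and length 1 rose and 2 fell, and leaving out 1 library gave from 0 to 2 falls, with 1 without si-Control library 5, 2 without si-*Fndc1* library 4 and 0 without any other. Of 10 myoblast and cycling cell markers 2 rose, *Myod1* (0.16, SE 0.04, adjusted p = 0.0162) and *Cdk1* (0.41, SE 0.11, adjusted p = 0.0137), and the other 8 were not called, while with the offset 2 rose and 1 fell. These 10 summed to 80.8 to 86.7 FPKM in control libraries and 86.4 to 96.6 FPKM in knockdown libraries. The paper reports less *Myomaker* (*Mymk*) and *Caveolin-3* (*Cav3*) mRNA after *Fndc1* knockdown in C2C12 cells, measured by RT-PCR. The rise of *Mymk* here is opposite to that. *Cav3* was not called (log2 fold change 0.10, SE 0.04, edgeR adjusted p = 0.0754), and the cause of the difference was not tested.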
